A study of Rattus norvegicus with 12 samples.

Results

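Tmem47 encodes a membrane protein of cell junctions, and 9 further genes encode the cadherin, catenins, desmosomal proteins, scaffold and connexins of the intercalated disc. Together they make 10 of the 17322 gene models measured in whole hearts of Sprague Dawley rats, picked by gene symbol, and all 10 were among the 12980 models high enough to be tested. Tmem47 was picked because its level differed between offspring of diabetic and lean dams in these same libraries, so that difference is described here and not tested. The other 9 were picked for their place in the disc.

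Female rats were made diabetic in pregnancy (gestational diabetes, GDM) by feeding them fat and sucrose in excess (HFS) from before mating until their pups were weaned, while the control females (Lean) had low fat food (LF) throughout. Pups of both kinds of dam were put on LF or HFS food by random assignment at 3 weeks, and whole hearts were taken at 15 weeks of age. Groups are named by dam, then by the offspring's own food: the 2 Lean groups are Lean-LF and Lean-HFS and the 2 GDM groups GDM-LF and GDM-HFS, each with 3 libraries. GDM and Lean dams differed in food as well as in metabolic state, and the parts of these cannot be told apart. The labels give neither litter nor sex, and p-values measure the spread between these libraries, some of which may share a dam.

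The intercalated disc joins heart muscle cells end to end. Adherens junctions and desmosomes carry force between the cells, with cadherins reaching across the gap and catenins and plakophilins tying them to the cytoskeleton, while gap junctions made of connexins pass current from cell to cell. Tmem47 belongs to the tetraspan family of the peripheral myelin protein Pmp22, the epithelial membrane proteins and the claudins, and is found at cell-cell contacts.

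Values are normalised reads of a gene model, scaled so that the bulk of genes matches between libraries, and they are not divided by gene length, so levels are compared between libraries and never between genes. Depth, leaving ribosomal RNA aside, was 9172734 to 11622377 reads per library in Lean and 10418380 to 14418970 in GDM libraries. It thus went with the dam: every GDM library except GDM-LF 1 was deeper than all Lean libraries. The 8 cardiomyocyte markers summed to 121222 to 220993 per library and were above 0 in all 12. Eif2s3y, on the Y chromosome, lay between 118 and 143 in all 12 libraries. Usp9y, also on the Y chromosome, ran from 0.208 to 4.97. Ddx3y, placed on chromosome 13 in this annotation, ran from 0.341 to 4.65, and sex is not read from these levels. Lean-HFS 2 had the highest mean macrophage marker level of the 12 libraries and GDM-LF 3 the highest atrial marker level of the 6 LF libraries, and values without either or both of them are given below for Tmem47, Jup, the connexins and the junction list genes they move most.

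The sequence just before the Tmem47 start is shown because it is the gene whose level differed with the dam, next to that of Gja1, a connexin gene whose level did not pass any test. Both are the 250 bases upstream of the start on the plus strand, from RefSeq on GRCr8, at chrX:49338282-49338531 and chr20:36302314-36302563, written 5′ to 3′ with GC boxes (GGGCGG on either strand) in capitals. Of the 10 genes, 6 had an upstream sequence there.
Tmem47: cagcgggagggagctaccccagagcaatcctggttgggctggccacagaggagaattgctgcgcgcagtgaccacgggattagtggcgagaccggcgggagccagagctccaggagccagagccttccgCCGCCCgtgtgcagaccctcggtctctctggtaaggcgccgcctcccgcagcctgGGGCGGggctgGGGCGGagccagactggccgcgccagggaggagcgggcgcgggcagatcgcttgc
Gja1: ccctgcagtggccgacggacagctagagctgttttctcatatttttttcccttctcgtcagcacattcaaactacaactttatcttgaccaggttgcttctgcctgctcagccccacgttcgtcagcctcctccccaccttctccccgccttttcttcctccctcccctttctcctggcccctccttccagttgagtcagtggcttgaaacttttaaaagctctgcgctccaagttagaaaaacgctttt
The Tmem47 sequence is 71.2% G or C and holds 3 GC boxes, and that of Gja1 is 51.2% G or C and holds 0. A GC box was present in 30.5% of the 33469 upstream sequences of the same length, whose median G and C content was 51.2%. Neither sequence holds a CCAAT box (CCAAT, in 34.0% of sequences) or a TATA box (TATAAA, in 12.9%), on either strand, and of E-boxes (CANNTG, in 65.5%) Tmem47 has 0 and Gja1 has 1. These are matches of letters, with no measure of binding.

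Tmem47 lies on chromosome X at 48779110 to 48805644 of Rnor_6.0, on the plus strand, and its model, a whole gene with exons and introns, overlaps no other model of the table. In Lean-LF hearts its level was 137, 159 and 123 in libraries 1, 2 and 3, and in Lean-HFS hearts 144, 132 and 141. In GDM-LF hearts it was 203, 216 and 219, and in GDM-HFS hearts 198, 208 and 221. Every GDM library lay above every Lean library, on either diet, with the lowest GDM value at 198 and the highest Lean value at 159.

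**Figure D1:**
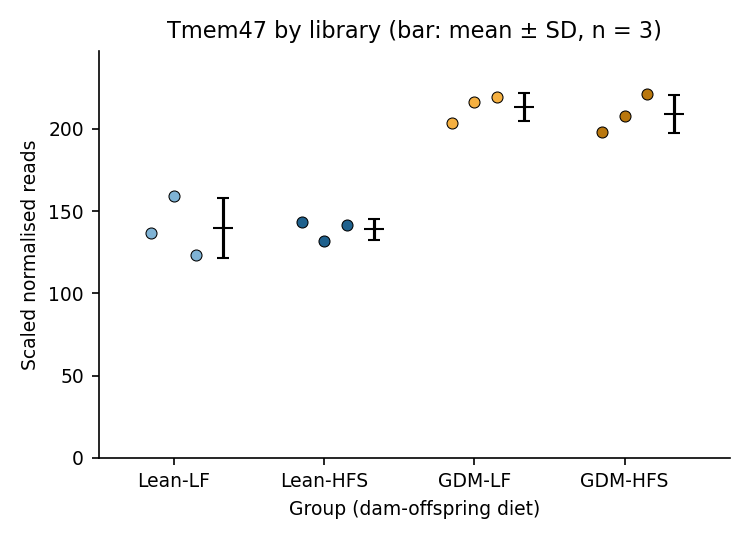
Tmem47 in each of the 12 libraries by group, as scaled normalised reads on an axis from 0, with points for libraries and bars for the group mean ± SD (n = 3). The 6 GDM libraries sit between 198 and 221 and the 6 Lean libraries between 123 and 159.

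These levels rest on 495 to 751 reads in Lean and 841 to 1285 in GDM libraries. The Lean mean was 139 ± 12.1 and the GDM mean 211 ± 9.38 (SD, n = 6 each), a log2 difference of 0.60 ± 0.068 (limma standard error), or 1.52-fold. The difference was 0.61 ± 0.096 on the LF diet and 0.59 ± 0.096 on the HFS diet. Of all models tested, 51 (0.393%) had every GDM library above every Lean one, and 7 (0.0539%) were called higher in GDM by limma at an adjusted p under 0.05. Since this contrast chose Tmem47, nothing is read from its place among them.

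In order of Tmem47 level the groups ran Lean-HFS (139 ± 6.20), Lean-LF (140 ± 18.1), GDM-HFS (209 ± 11.6) and GDM-LF (213 ± 8.54), as mean ± SD with n = 3. The neighbours Lean-HFS and Lean-LF did not differ beyond their spread, nor did GDM-HFS and GDM-LF. The step between the Lean and GDM groups is what Tmem47 was chosen for, so it is not weighed against the spread. The spread within a group was widest in Lean-LF, at 13.0% of the mean, against 4.01 to 5.54% in the other 3.

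The offspring's own diet played no part in choosing Tmem47 and could be tested. HFS and LF hearts differed by -0.016 ± 0.068 on the log2 scale (limma, Benjamini-Hochberg adjusted p = 0.956, 95% interval -0.16 to 0.13). Their levels ran from 132 to 221 and from 123 to 219 and overlapped throughout. The diet difference was -0.0029 ± 0.096 in offspring of Lean dams and -0.030 ± 0.096 in offspring of GDM dams (limma adjusted p = 0.999 and 0.985). The interaction of dam and diet was -0.027 ± 0.14 (limma adjusted p = 0.999, 95% interval -0.32 to 0.27). A diet difference, or a difference between the diets in the effect of the dam, of the size seen between GDM and Lean hearts lies outside these intervals. That size comes from the contrast that chose Tmem47. The intervals rest on the same spread within groups as that contrast, so the choice may have made them too narrow.

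Several cell type markers moved with the dam groups. Atrial markers were higher in GDM hearts in 8 of 8 genes, with a median log2 difference of 0.92, though their summed level ran from 1527 to 6188 in Lean and from 1048 to 18554 in GDM libraries and overlapped. Macrophage markers were lower in 8 of 8 (median -0.32), summing to 586 to 1020 in Lean and 499 to 607 in GDM libraries. Smooth muscle markers were higher in 5 of 5 (median 0.64), summing to 907 to 1270 and 994 to 2840, and erythroid markers lower in 5 of 5 (median -0.55), summing to 5773 to 10256 and 2771 to 6679. Pericyte markers were lower in 6 of 6 (median -0.17), summing to 2912 to 3535 and 2697 to 3056. None of these marker genes was at 0 in any library, and 0 of them were called by limma. Fewer cells of a type and less RNA per cell cannot be told apart in whole-heart RNA.

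With the mean atrial marker level of each library in the model the Tmem47 difference was 0.57 ± 0.077, and with the macrophage level it was 0.57 ± 0.098. Without Lean-HFS 2 and GDM-LF 3 it was 0.57 ± 0.076. The mean log2 macrophage level ran from 5.69 to 6.45 in Lean and from 5.23 to 5.65 in GDM libraries, without overlap. The fit with the macrophage level therefore cannot tell it apart from the dam. Adipocyte markers were higher in GDM hearts in 4 of 6 genes (median 0.65), summing to 16.8 to 42.9 in Lean and 8.70 to 112 in GDM libraries, with Cidec, Retn and Lep each at 0 in at least 1 library. Mesothelial markers were higher in 3 of 3 (median 0.18), summing to 106 to 128 and 113 to 166. Ventricular markers were lower in 4 of 5 (median -0.13), fibroblast markers lower in 5 of 7 (median -0.090) and Schwann cell markers higher in 4 of 5 (median 0.12). The summed levels of these overlapped between Lean and GDM libraries. The part of smooth muscle, erythroid, pericyte, adipocyte, mesothelial, ventricular, fibroblast and Schwann cell content was not tested. Endothelial markers were lower in 7 of 9 genes (median -0.051) and summed to 3984 to 4588 in Lean and 4008 to 4564 in GDM libraries.

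Of the models tested, those nearest to Tmem47 on the X chromosome did not pass, and models too low to be tested may lie closer. On the lower side Prrg1, a membrane protein with a Gla domain, ends 2973 kb away and was at 56.2 ± 6.18 in Lean and 53.0 ± 10.2 in GDM hearts (limma adjusted p = 0.8). Beyond it Sts, steroid sulfatase, was at 133 ± 14.6 and 105 ± 14.7 (log2 -0.34 ± 0.097, limma adjusted p = 0.236) and Ptges3l1 at 12.4 ± 1.60 and 14.5 ± 2.98 (limma adjusted p = 0.644). On the higher side Dmd, the gene of dystrophin, starts 4555 kb away and differed by 0.12 ± 0.075 on the log2 scale (limma adjusted p = 0.564). The glycerol kinase gene Gk and the model LOC100363193, which lies within the span of Gk, had log2 differences of 0.14 ± 0.079 and 0.14 ± 0.16 (limma adjusted p = 0.53 and 0.778). Among the 396 other models tested on chromosome X, limma called 0 between GDM and Lean hearts (0.0616% of all models), 51 had an unadjusted p under 0.05 (11.2% of all models had one), and the median log2 difference was 0.018.

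The 9 disc genes showed no such step between offspring of GDM and Lean dams. Their log2 differences lay between -0.13 (Jup) and 0.083 (Gja5), with 5 above and 4 below 0 and a median of 0.032, against 0.0015 over all models. By limma 0 of the 9 were called, against 0.0616% of all models, and 0 had an unadjusted p under 0.05, against 11.2% of all models. In 0 of the 9 did the 6 GDM and 6 Lean libraries not overlap, against 0.794% of all models. DESeq2 and edgeR on recovered reads also called 0 of the 9. DESeq2 called 1.29% of the models it gave an adjusted p, and edgeR 0.0616% of all models. The 95% intervals of the 9 reached from -0.33 to 0.49 on the log2 scale, both ends set by Gja5, so a difference as large as the 0.60 of Tmem47 lies outside each of them.

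**Figure D2:**
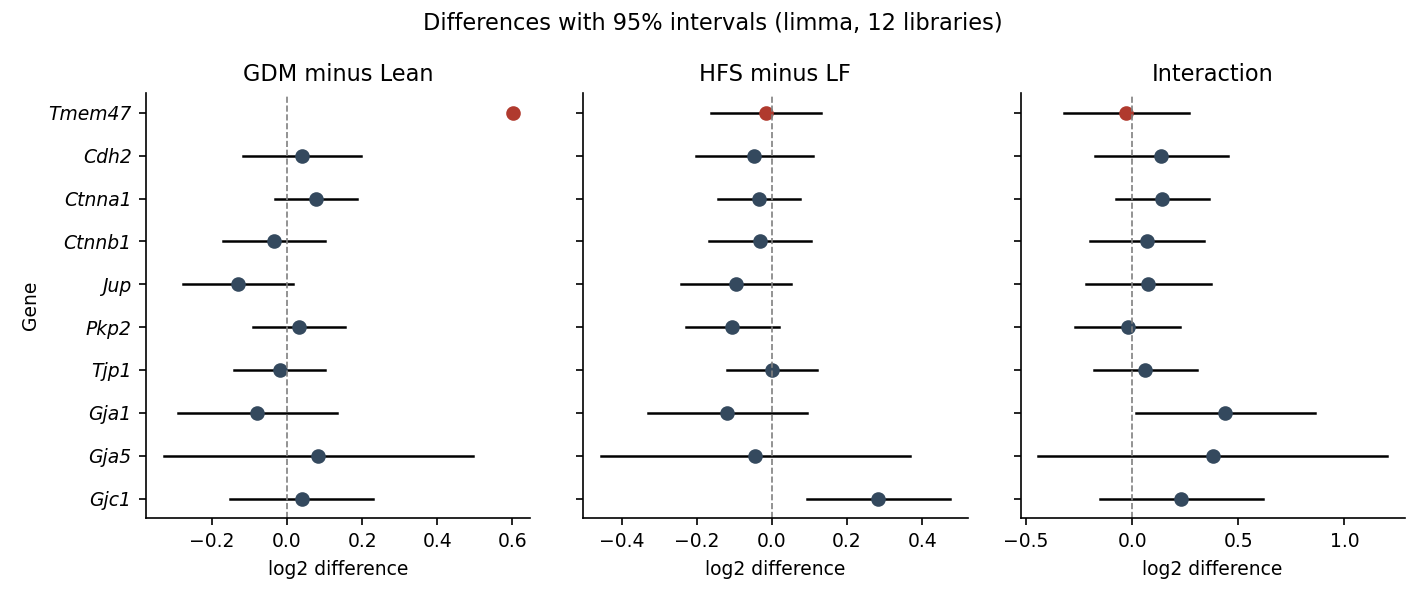
Log2 differences (x axis) of the 10 genes (rows) between GDM and Lean hearts, between HFS and LF hearts, and for their interaction, as points with 95% limma intervals; Tmem47 has no interval in the first panel, whose contrast chose it. In that panel Tmem47 stands at 0.60 and the other 9 lie between -0.13 and 0.083.

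Among adhesion genes, Cdh2, or N-cadherin, the cadherin that spans the gap between heart muscle cells, was at 2590, 2309 and 2721 in Lean-LF, 2062, 2386 and 2605 in Lean-HFS, 2492, 2361 and 2606 in GDM-LF and 2657, 2593 and 2331 in GDM-HFS hearts. The groups overlapped, and GDM and Lean means were 2507 ± 136 and 2445 ± 242 (SD, n = 6; log2 0.040 ± 0.073, limma adjusted p = 0.873). Ctnnb1, beta-catenin, which binds the cadherin tail and also acts in Wnt signalling, was at 574 ± 19.8 in GDM and 590 ± 52.7 in Lean hearts (log2 -0.035 ± 0.063, limma adjusted p = 0.872). Its highest value, 662, was in Lean-LF 1, and its lowest in Lean-HFS 3, so the Lean libraries spanned the whole range.

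Ctnna1, alpha-catenin, which links the cadherin complex to actin, was the steadiest of the adhesion genes in GDM hearts. It was at 1587, 1608 and 1643 in GDM-LF and 1664, 1640 and 1661 in GDM-HFS libraries, against 1680, 1500 and 1644 in Lean-LF and 1521, 1528 and 1431 in Lean-HFS. The 3 GDM-HFS libraries lay above the 3 Lean-HFS ones, a log2 difference of 0.15 ± 0.072 that did not pass (limma adjusted p = 0.547), and this was the only 1 of the 9 genes whose GDM-HFS and Lean-HFS libraries did not overlap, against 13.8% of all models. On the LF diet its values overlapped (log2 0.0061 ± 0.072, limma adjusted p = 0.996), and the averaged difference was 0.077 ± 0.051 (limma adjusted p = 0.608). Its model contains that of Lrrtm2, which held 0.888% of its level.

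Jup, plakoglobin, the catenin shared by adherens junctions and desmosomes, had the lowest adjusted p of the 9 between GDM and Lean hearts. It was at 1036, 969 and 1004 in Lean-LF, 964, 783 and 1011 in Lean-HFS, 862, 978 and 844 in GDM-LF and 896, 845 and 832 in GDM-HFS libraries. Of the Lean libraries 5 lay at 964 or above and of the GDM libraries 1 did, while Lean-HFS 2 was the lowest of all 12. The log2 difference was -0.13 ± 0.068 (limma adjusted p = 0.495, 95% interval -0.28 to 0.017). It was -0.17 without Lean-HFS 2 and GDM-LF 3, -0.27 with the macrophage level in the model and -0.020 in the values as deposited. Since the macrophage level did not overlap between Lean and GDM libraries, the fit with it cannot tell it apart from the dam. Pkp2, plakophilin, an armadillo protein of the desmosome, was at 429 ± 31.7 in GDM and 420 ± 24.1 in Lean hearts (log2 0.032 ± 0.057, limma adjusted p = 0.871). Its libraries ran from 379 to 472 with no group apart from the rest.

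Tjp1, a scaffold of the zonula occludens family that binds connexins and actin, differed least among the 9. It was at 1048 ± 36.1 in Lean and 1035 ± 65.1 in GDM hearts (log2 -0.019 ± 0.056, limma adjusted p = 0.926), and its 12 libraries ran from 964 to 1112. The 95% interval of its difference was -0.14 to 0.10.

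**Figure D3:**
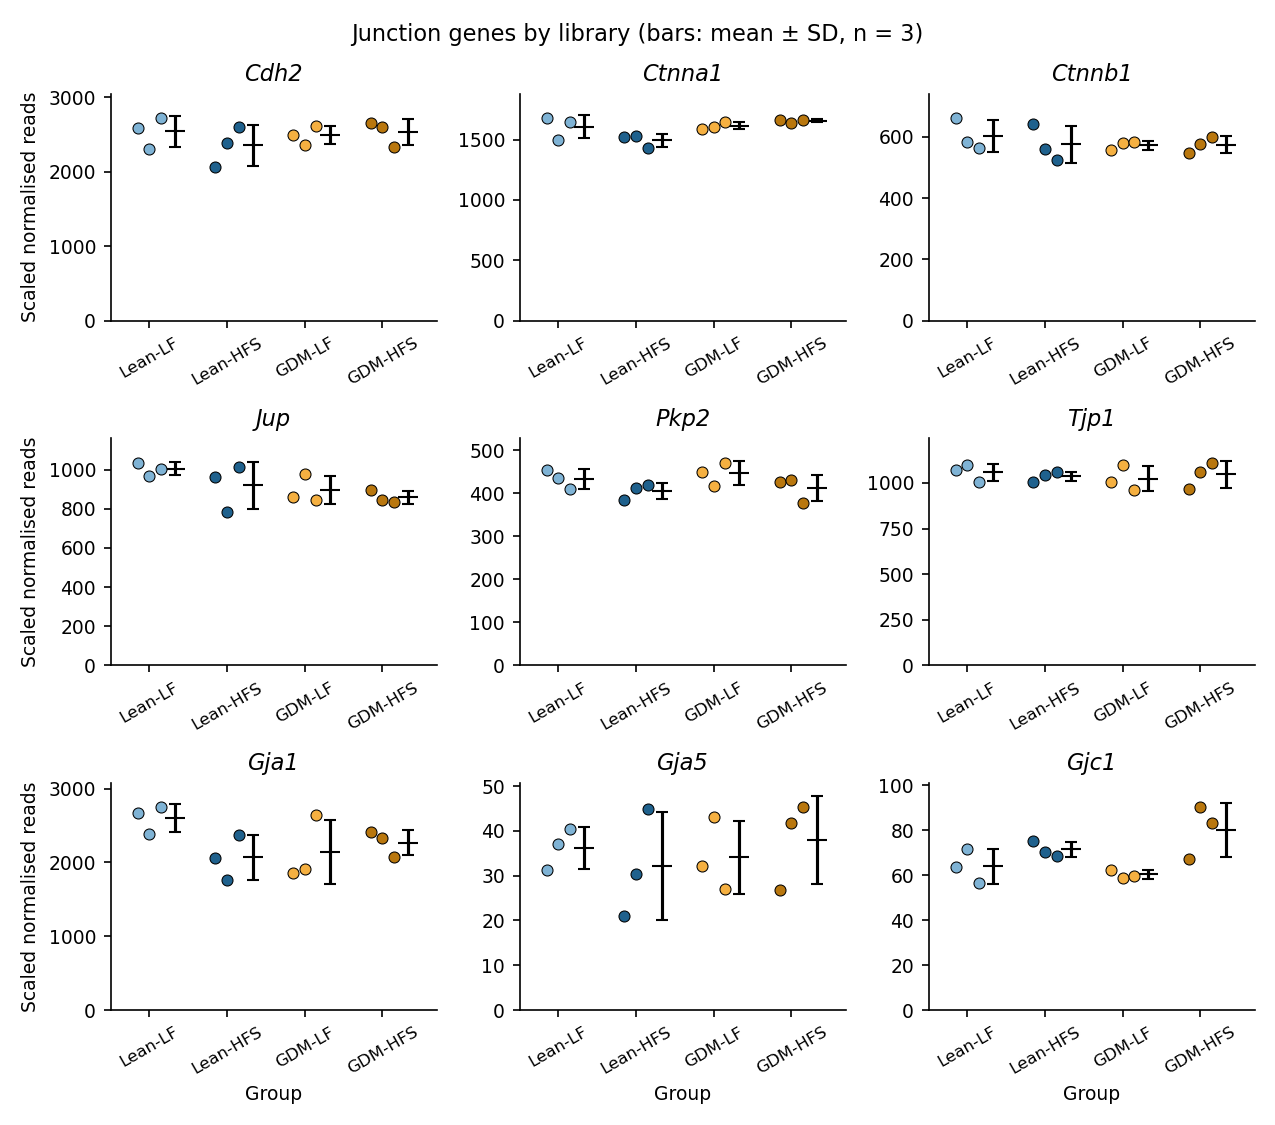
Scaled normalised reads of the 9 disc genes in each library by group, each panel on its own axis from 0, with points for libraries and bars for the group mean ± SD (n = 3). Ctnna1 and Tjp1 vary least over the 12 libraries (4.98 and 4.86% of their mean) and Gja5 most (23.0%).

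Over the 12 libraries the 3 connexin genes had SDs of 14.6 to 23.0% of their mean, and the other 6 disc genes of 4.86 to 9.18%. Gja1, the main connexin of working heart muscle, was at 2673, 2383 and 2746 in Lean-LF, 2063, 1766 and 2375 in Lean-HFS, 1861, 1914 and 2641 in GDM-LF and 2407, 2327 and 2072 in GDM-HFS libraries. The Lean-LF group had the highest mean, and GDM-LF 3 and GDM-HFS 1 lay within its range while the other 2 GDM-LF libraries were below it. Between GDM and Lean hearts the log2 difference was -0.078 ± 0.098 (limma adjusted p = 0.81), made of -0.30 ± 0.14 on the LF and 0.14 ± 0.14 on the HFS diet (limma adjusted p = 0.981 and 0.798). The averaged difference was -0.21 ± 0.070 without Lean-HFS 2 and GDM-LF 3 (limma adjusted p = 0.366), -0.16 ± 0.083 without GDM-LF 3 alone (0.568) and -0.19 ± 0.092 with the atrial level in the model (0.62). Over all fits without a single library it ran from -0.16 to -0.026, and in the values as deposited it was 0.032.

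The interaction for Gja1 was 0.44 ± 0.20 on the log2 scale, with an unadjusted limma p of 0.0426, and did not pass over all models (adjusted p = 0.999). It was the only 1 of the 9 with an unadjusted p under 0.05 for the interaction, and 3.01% of all models had one. In offspring of Lean dams Gja1 differed by -0.34 ± 0.14 between HFS and LF (limma adjusted p = 0.881), with the lowest Lean-LF library (2383) just above the highest Lean-HFS one (2375). That was the only 1 of the 9 genes without overlap in this comparison, against 10% of all models. In offspring of GDM dams it differed by 0.10 ± 0.14 (limma adjusted p = 0.96). Averaged over dams the diet difference was -0.12 with all libraries and 0.016 without Lean-HFS 2 and GDM-LF 3, while the interaction without them was 0.49.

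Gja5, the connexin of atrial muscle, the conduction system and arterial endothelium, was read from 81 to 218 reads per library and spread widely. It was at 31.2, 37.1 and 40.3 in Lean-LF, 20.9, 30.5 and 44.9 in Lean-HFS, 32.2, 43.1 and 27.0 in GDM-LF and 26.8, 41.7 and 45.3 in GDM-HFS libraries. All 4 groups overlapped, and the averaged difference between GDM and Lean hearts was 0.083 ± 0.19 (limma adjusted p = 0.906). GDM-HFS 1 and GDM-LF 3, the libraries with the highest mean atrial marker level, held the lowest Gja5 values of the 6 GDM libraries. Its wide 95% interval, -0.33 to 0.49, holds differences of either sign. Counting error at its 81 to 218 reads, taking reads as independent, would be 11.1 to 6.77%, against an SD of 23.0% of the mean over the 12 libraries. Without Lean-HFS 2 and GDM-LF 3 its differences were 0.16 ± 0.21 with the dam and -0.12 ± 0.21 with the diet (limma adjusted p = 0.853 and 0.876).

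Gjc1, the connexin of nodal and conduction tissue, was at 63.5, 71.7 and 56.4 in Lean-LF, 75.3, 70.5 and 68.7 in Lean-HFS, 62.4, 58.9 and 59.6 in GDM-LF and 67.0, 90.2 and 83.3 in GDM-HFS libraries. Between dams its levels overlapped (GDM 70.2 ± 13.3, Lean 67.7 ± 6.72, SD, n = 6; log2 0.039 ± 0.089, limma adjusted p = 0.901). With the offspring's diet it had the largest difference of the 9, 75.8 ± 9.16 in HFS against 62.1 ± 5.34 in LF hearts (log2 0.28 ± 0.089, 95% interval 0.093 to 0.47). Over all models this did not pass (limma adjusted p = 0.476).

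The diet difference of Gjc1 was 0.40 ± 0.13 in offspring of GDM dams, where all 3 HFS libraries lay above all 3 LF ones (limma adjusted p = 0.761), and 0.17 ± 0.13 in offspring of Lean dams (adjusted p = 0.881). The difference between these was 0.23 ± 0.18 (limma adjusted p = 0.999). Without overlap between GDM-HFS and GDM-LF libraries Gjc1 stood alone among the 9, against 11.4% of all models. Its model spans 128 kb of chromosome 10 (90781674 to 90909572 of Rnor_6.0) and overlaps no other model. Atrial markers were higher in HFS hearts in 8 of 8 genes (median 1.14), summing to 1048 to 11399 in LF and 3402 to 18554 in HFS libraries. Adipocyte markers were higher in 6 of 6 (median 1.58), with Cidec, Retn and Lep each at 0 in at least 1 library, and cardiomyocyte markers lower in 8 of 8 (median -0.22). Ventricular markers were lower in 5 of 5 (median -0.31), erythroid markers lower in 5 of 5 (median -0.36) and smooth muscle markers higher in 4 of 5 (median 0.71). Mesothelial markers were higher in 2 of 3 (median 0.49). With the atrial level in the model the diet difference of Gjc1 was 0.31 ± 0.11 (limma adjusted p = 0.952), and without Lean-HFS 2 and GDM-LF 3 it was 0.28 ± 0.10 (limma adjusted p = 0.355). The part of the other 6 lists was not tested.

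Of the other disc genes, Cdh2, Ctnna1, Ctnnb1 and Tjp1 had diet differences of -0.046 to 0.00022 on the log2 scale, and Jup, Pkp2, Gja1 and Gja5 of -0.096, -0.10, -0.12 and -0.044. By limma 0 of the 9 were called, as were 0% of all models, and Gjc1 alone had an unadjusted p under 0.05, against 7.92% of all models. In 0 of the 9 did HFS and LF libraries not overlap, against 0.347% of all models. DESeq2 and edgeR called 0 of the 9 here as well, against 0.283% of the models DESeq2 gave an adjusted p and 0% of all models by edgeR. For the interaction limma also called 0 of the 9, as it did 0% of all models. Within a single diet or kind of dam, again, limma called 0 of the 9 in all 4 comparisons of 3 against 3 libraries, where it called 0.0308% of models between GDM-LF and Lean-LF, 0.0154% between GDM-HFS and Lean-HFS and 0% in both diet comparisons. An unadjusted p under 0.05 was found for 0 of the 9 between GDM-LF and Lean-LF (4.98% of all models), 0 between GDM-HFS and Lean-HFS (9.64%), 1 between Lean-HFS and Lean-LF (Gja1, 5.21%) and 1 between GDM-HFS and GDM-LF (Gjc1, 5.57%). GDM-LF and Lean-LF libraries overlapped in all 9, while they did not in 11% of all models.

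Other genes of cell junctions were read in 5 lists, of which 54 of 77 written symbols were tested. Limma called 0 of the 54 between GDM and Lean hearts and 0 between HFS and LF hearts, against 0.0616% and 0% of all models. An unadjusted p under 0.05 was found for 5 of the 54 in each, against 11.2% and 7.92% of all models, and DESeq2 and edgeR called 0 in both. The median log2 difference was -0.032 with the dam and 0.016 with the diet, against 0.0015 and 0.0083 over all models. The list of other adherens and desmosome genes, 12 tested, had medians of 0.051 and 0.030, the 6 other connexins and pannexins 0.073 and 0.0057, the 16 disc scaffolds and channels -0.062 and -0.045, and the 14 tight junction genes 0.0042 and 0.0011. The PMP22 and EMP relatives of Tmem47 had medians of -0.22 with the dam, where 6 of 6 tested were below 0, and 0.069 with the diet. The share of all models below 0 was not counted. Among these relatives Lim2 had a mean of only 2.33, and Lean-HFS 2 held the highest Pmp22 (294) and Emp1 (605) of all libraries. The claudins, of the same family, were read in the tight junction list and are not among the 6. Their differences with the dam lay on both sides of 0.

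**Figure D4:**
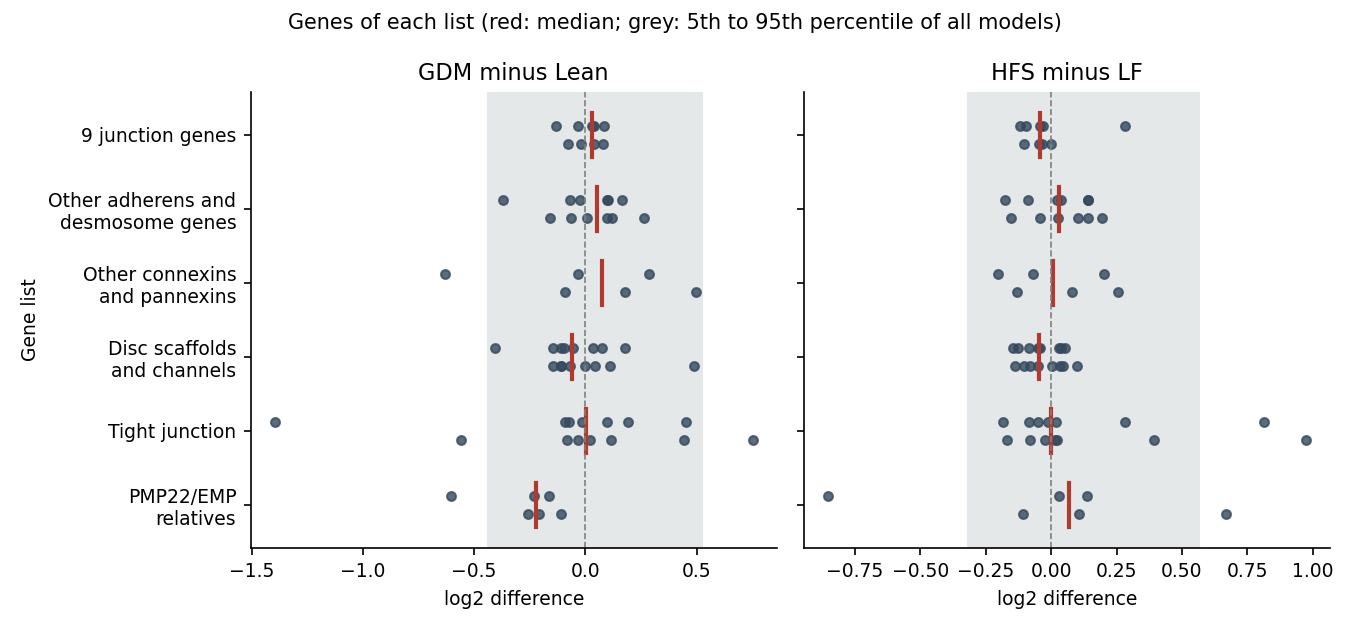
Log2 differences (x axis) between GDM and Lean hearts (left) and between HFS and LF hearts (right) for the tested genes of each list (rows), with points for genes, red bars for the list median and a grey band for the 5th to 95th percentile of all models. The 9 disc genes lie between -0.13 and 0.083 on the left.

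Emp2, an epithelial membrane protein of the same tetraspan family as Tmem47, was at 221, 227 and 230 in Lean-LF, 219, 227 and 181 in Lean-HFS, 166, 188 and 211 in GDM-LF and 176, 185 and 166 in GDM-HFS libraries. Of the Lean libraries 5 lay above all GDM ones, with Lean-HFS 3 as the exception, but the log2 difference of -0.26 ± 0.074 did not pass (limma adjusted p = 0.242). Emp1 was at 299 ± 45.7 in GDM and 362 ± 123 in Lean hearts, where Lean-HFS 2 reached 605 (log2 -0.23 ± 0.16, limma adjusted p = 0.621, and -0.064 ± 0.099 without that library). With the diet, Tmem178a differed by 0.67 ± 0.20 on the log2 scale between HFS and LF hearts (limma adjusted p = 0.455), and Pmp22 was at 181 ± 55.6 and 160 ± 9.98 (limma adjusted p = 0.803). Lean-HFS 2 held Pmp22 at 294, and without it the log2 difference went from 0.14 ± 0.12 to -0.0070 ± 0.061.

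Panx2, a pannexin, of a channel family related in fold to connexins, was at 60.3 ± 10.9 in GDM and 42.8 ± 8.63 in Lean hearts (SD, n = 6; log2 0.50 ± 0.14, limma adjusted p = 0.231), and the difference was 0.34 ± 0.13 without Lean-HFS 2 and GDM-LF 3. Gja4, a connexin of vascular endothelium, was at 23.3 ± 2.77 in HFS and 27.0 ± 4.40 in LF hearts (limma adjusted p = 0.723).

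Among scaffolds, Cxadr, the coxsackie and adenovirus receptor, an adhesion protein of the disc and of tight junctions, had the largest difference with the dam. It was at 228, 194 and 208 in Lean-LF, 221, 128 and 203 in Lean-HFS, 247, 197 and 265 in GDM-LF and 410, 312 and 245 in GDM-HFS libraries (log2 0.49 ± 0.14, limma adjusted p = 0.242), and without Lean-HFS 2 and GDM-LF 3 the difference was 0.33 ± 0.12. GDM-HFS hearts lay above Lean-HFS hearts with no overlap (log2 0.82 ± 0.20, limma adjusted p = 0.309). Cxadr was 1 of 10 of the 54 list genes (18.5%) whose libraries did not overlap in this comparison, against 13.8% of all models. DESeq2 called this difference (0.81 ± 0.21, adjusted p = 0.0284), 1 of 54 where it called 0.377% of the models it gave an adjusted p. Lean-HFS 2 held the lowest Cxadr value of all libraries (128) and GDM-HFS 1 the highest (410), and DESeq2 was not run without them. In the other 6 contrasts DESeq2 called 0 of the 54. Of the models it gave an adjusted p, it called 1.29% with the dam, 0.283% with the diet and 0.142% between GDM-LF and Lean-LF. It called 0.118% of 5933 such models between GDM-HFS and GDM-LF, and 0% for the interaction and between Lean-HFS and Lean-LF. Xirp2, an actin-binding protein of the disc, was at 5302 ± 810 in GDM and 7445 ± 3452 in Lean hearts, where Lean-HFS 2 reached 14299 (log2 -0.41 ± 0.21, limma adjusted p = 0.479, and -0.18 ± 0.12 without that library). With the diet Flnc, filamin C, was at 2023 ± 283 in HFS and 2221 ± 87.3 in LF hearts (limma adjusted p = 0.63) and Nrap at 2927 ± 364 and 3209 ± 309 (limma adjusted p = 0.725).

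In the other adherens and desmosome list the genes with the largest differences were Pkp3, a plakophilin of epithelia, and Perp, a tetraspan protein of desmosomes. Pkp3 was at 5.10 ± 0.798 in GDM and 6.71 ± 1.44 in Lean hearts (limma adjusted p = 0.55) and Perp at 147 ± 13.2 and 136 ± 35.1 (limma adjusted p = 0.712). With the diet they differed by 0.20 ± 0.22 and -0.18 ± 0.14 on the log2 scale (limma adjusted p = 0.836 and 0.781). Perp was at 72.6 in Lean-HFS 2 and at 127 to 181 in the other 11 libraries, and without Lean-HFS 2 its differences were 0.012 ± 0.086 with the dam and -0.021 ± 0.086 with the diet. Without GDM-LF 3 as well they changed sign, to -0.032 and 0.022, and the diet difference of Pkp3 was 0.099 ± 0.26. Among tight junction genes Cldn1, a claudin, differed by 0.97 ± 0.42 on the log2 scale between HFS and LF hearts (limma adjusted p = 0.608) and was at 9.57 ± 6.30 in GDM and 7.03 ± 5.81 in Lean hearts (limma adjusted p = 0.737), and without Lean-HFS 2 and GDM-LF 3 these differences were 1.37 ± 0.42 and 0.050 ± 0.42. Cgnl1, a junction protein related to cingulin, was at 490 ± 117 in HFS and 368 ± 53.3 in LF hearts (log2 0.39 ± 0.14, limma adjusted p = 0.518). Tjp3 shares its position with Apba3, whose level was 15.8 times its own, and is uncertain (log2 -0.56 with the dam, limma adjusted p = 0.492, and -0.37 without Lean-HFS 2 and GDM-LF 3).

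To see which genes followed the Tmem47 pattern, its log2 levels were compared with those of 10031 other models with a mean of at least 10, as a description. Over the 12 libraries Pearson's r was highest for Marcksl1 (0.93), an actin- and calmodulin-binding protein, Kctd16 (0.90), a partner of GABA-B receptors, Tmco1 (0.88), a calcium channel of the endoplasmic reticulum, the phosphatase Ptpn2 (0.87) and the splicing factor Srsf5 (0.87). The Tmem47 levels fall into a GDM and a Lean cluster, so these r values describe that split, for which Tmem47 was chosen. Tmco1, for example, ran from 49.8 to 53.6 in Lean and from 58.0 to 62.8 in GDM libraries. Once each library was set against the mean of its own group, the r of Marcksl1, Kctd16 and Tmco1 with Tmem47 was -0.13, -0.20 and -0.35, and that of Ptpn2 and Srsf5 0.38 and 0.27.

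Within groups the highest r belonged to Myoc (0.96), Abcd4 (0.95), Trim32 (0.94, with an overlapping model that makes it uncertain), Bcap31 (0.94) and Pus3 (0.90). Their log2 differences between GDM and Lean hearts lay between -0.042 and 0.40. Of the 9 disc genes Gjc1 ranked highest within groups (r = 0.66, rank 192 of 10031), then Tjp1 (0.51), and Cdh2 and Ctnna1 had the lowest values (-0.62 and -0.58). Over all 12 libraries their r with Tmem47 ran from -0.46 (Jup) to 0.42 (Ctnna1). All points share the scaling of their library, and 12 libraries leave such values loose.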

How the data were processed

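Libraries were prepared from rat heart RNA, after ribosomal depletion, with the NEBNext Ultra II Directional kit and read as pairs of 100 bp, per the labels' protocols, which also name STAR 2.5.1b and Rnor_6.0. The submitters' processing notes list HOMER 4.9, edgeR, FastQC and Trim Galore with no roles, and no source used here states how reads were counted. The deposited values are a normalised read signal: they are called FPKM, but hold whole reads times 1 constant per library and no gene length. Undoing that constant brought 100.0% of values to within 0.1 of a whole read.

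Each library was rescaled by its median ratio to the others (factors 0.890 to 1.15). Without this step the median model differed by 0.11 on the log2 scale between GDM and Lean and by 0.11 between HFS and LF libraries, so differences here are relative to most genes. Models with a mean of at least 0.5 were tested with limma 3.58.1 (R 4.3.3, variance trend) on log2(value + 0.1), which understates changes of low genes, with the 4 groups in 1 model. P-values are two-sided, adjusted by Benjamini-Hochberg over all 12980 models and called at 0.05. The error after a log2 difference is limma's standard error, and after a level it is the SD. The fit was tested on simulated reads. Alternatives were edgeR 4.0.16 and DESeq2 1.42.0 on the whole reads, other pseudocounts, filters and scalings, covariates and left-out libraries. DESeq2 gave an adjusted p to 5933 to 12976 models by contrast, and a gene without one counts as not called.

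The members and lists were chosen with earlier results of these data known. All 10 members are named, and from each of the 5 junction lists every called gene and the 2 with the largest difference in each averaged contrast, among those with a mean of at least 5. A gene that this rule names is not reported here. The genes most like Tmem47 are the 5 with the highest Pearson's r over 12 libraries and the 5 with the highest r of deviations from group means. The DESeq2 call of Cxadr was singled out after its values were seen.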

Additional observations from a re-analysis of the deposited data

Results flagged for a closer look

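Over 40 sets of 6 libraries (10 genes in the Lean, GDM, LF and HFS libraries), 2 held a library far from the other 5 by Dixon's test, which flags about 1 set in 20 by chance. Ctnnb1 was at 662 in Lean-LF 1, above the other LF libraries. Jup was at 783 in Lean-HFS 2, below the other Lean libraries.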

How the results depend on the processing

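Of the 9 disc genes 0 were called in any of the 7 contrasts, and of the 54 list genes 0 in either averaged contrast, under every alternative run. The fit on only the groups compared gives no averaged contrast, and Ctnna1 was not tested without overlapping models. The Tmem47 difference between GDM and Lean hearts was 0.57 to 0.60 under the alternatives other than values as deposited, which gave 0.71, and 0.56 to 0.65 without single libraries. Over all models 8 were called between GDM and Lean hearts, against 13 as deposited, 154 by DESeq2, 5 with the macrophage level and 14 without Lean-HFS 2 and GDM-LF 3 (these last 2 alternatives were chosen after seeing the data). Without single libraries it was 6 to 20, with 20 without Lean-HFS 3. DESeq2 called 31 models between HFS and LF hearts, where limma and edgeR called 0. Differences that changed sign, none of them called, were, as deposited, those with the dam of Ctnnb1 (0.075), Gja1 (0.032) and Tjp1 (0.091) and with the diet of Cdh2 (0.052), Ctnna1 (0.064), Ctnnb1 (0.067), Gja5 (0.054), Jup (0.0024) and Tmem47 (0.082). With the diet the sign also changed for Ctnna1 under quantile normalization (0.0055), Gja5 with the atrial level (0.0015) and Tjp1 by edgeR (-0.0023) and DESeq2 (-1.3e-05). Without Lean-HFS 2 and GDM-LF 3 it changed for Gja1 (0.016), Tjp1 (-0.023) and Tmem47 (0.013) with the diet and Tjp1 with the dam (0.0043). Leaving out single libraries gave ranges across 0 with the dam for Cdh2 (-0.0056 to 0.079), Ctnnb1 (-0.067 to 0.0060), Gja5 (-0.054 to 0.22), Gjc1 (-0.0058 to 0.10) and Tjp1 (-0.046 to 0.0087), with the diet for Tmem47 (-0.059 to 0.033), Ctnnb1 (-0.072 to 0.0034), Gja5 (-0.18 to 0.092) and Tjp1 (-0.022 to 0.028), and for the interaction of Tmem47 (-0.12 to 0.059). Values as deposited lack the rescaling of libraries. Without it the median model differed by 0.11 on the log2 scale with the dam and by 0.11 with the diet. The cause of the other changes of sign was not tested. The replicate numbers in the titles did not clearly pair the libraries. Deviations correlated above 0.1 in 4 of 18 same-numbered and 5 of 36 other pairs, with a median r of 0.0079 and -0.0054. With the replicate block the Tmem47 difference was 0.60 ± 0.073 and 10 models were called in place of 8. Gja5 had the fewest reads of the disc genes. Its spread over libraries (23.0%) was above the counting error of 6.77 to 11.1% that its reads would give if independent. Among low recovered read counts, 67.8 to 73.6% per library were even, so reads may not be independent and this error may be too small.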
